A study of Homo sapiens with 14 samples.

Results

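RNU4-1 and RNU4-2 are the genes of the U4 small nuclear RNA (snRNA), and RNA polymerase II (RNAPII) over them was mapped by ChIP-seq, the sequencing of DNA that an antibody pulls down with chromatin. They are 2 of the 12425 genes in the deposited table. They were chosen by name, because snRNA genes lay on different sides of 0 at 16 h and at later hours when cells given an inhibitor of the kinase ATR (ATRi) were set against cells given the vehicle DMSO. Values of that contrast are therefore a description and carry no test.

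The cells were BJ hTERT, human foreskin fibroblasts immortalised with telomerase, a single line used in all groups. There were 14 groups of 1 library each. For RNAPII with phosphate on serine 2 of the repeats in its tail (Ser2), and likewise for total RNAPII (an antibody to the N-terminal part of its largest subunit, per the labels), there was a library at 14 h with no treatment named, and at 16, 19 and 22 h libraries of ATRi cells and of DMSO cells. The starting point of the hours, the inhibitor's name and any synchronisation of the cells are not given in the sources used here. The deposited column headers call the 14 h libraries CTR, with no further detail. The labels name no batch.

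U4 pairs with U6 snRNA and travels with it and U5 in the tri-snRNP, the particle that joins the spliceosome before splicing starts. U4 holds U6 inactive, and the helicase SNRNP200 then unwinds the pair. U4 genes are transcribed by RNAPII from small promoters bound by the SNAPc complex, and the Integrator complex cuts the 3′ end of the transcript in place of polyadenylation. Serine 2 phosphorylation is a mark of elongating RNAPII.

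Both genes lie on the minus strand of chromosome 12 (hg38). RNU4-2 (ENSG00000202538) spans 120291763 to 120291903 and RNU4-1 (ENSG00000200795) spans 120293097 to 120293237, 141 bp each with 1193 bp between them. Both are single-exon snRNA genes in RefSeq, which also places the protein-coding gene SIRT4 (120291780 to 120313249) over them. Reads from SIRT4 transcription cannot be told apart from theirs, and SIRT4 was not used here. RefSeq holds 89 U4 pseudogenes, of which the table lists 0. How reads that match several near-identical U4 copies were placed is not given in the sources used here, so the split of reads between RNU4-1 and RNU4-2 is uncertain.

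The libraries held 17181179 to 62368915 reads, recovered as whole reads from the deposited RPM, the reads per 1000000 library reads, and 35.8 to 72.0% of them lay in nuclear genes of the table. That share was 63.5 to 72.0% in the 4 libraries of 19 h and 35.8 to 57.4% in the other 10. All 8 fibroblast markers were in the table (COL1A2 at 173 to 525 RPM, FN1 at 209 to 886 RPM). Of the markers of other cell types, KRT14 of keratinocytes was at 0.236 to 1.18 RPM, and the others were not analysed here.

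Reads over the U4 genes came close to an upper bound, called the limit here, that other short genes shared. Over all 12411 nuclear genes and 14 libraries, no gene exceeded 2 reads per base of its span by more than 296 reads. RNU5A-1 and RNU5B-1, genes of the U5 snRNA, reached exactly that value, with 528 reads over 116 bp. The 2 reads per base was chosen here and 296 is the largest excess in these data. By construction, then, no gene can exceed the limit and the genes with the largest excess lie on it. For a span of 141 bp the same formula gives 578 reads. RNU4-2 reached 577 reads and RNU4-1 reached 568 reads. The median nuclear gene reached 2.59% of its limit. In 22 genes at least 1 library lay above 90% of the limit. All 22 had a span under 1000 bp, and 6 of them were snRNA genes (both U4 genes, RNU5A-1, RNU5B-1, RNU5E-1 and RNU4ATAC) and 11 were histone genes. How duplicate reads were treated is not given in the sources used here, and what sets the limit was not tested.

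**Figure D1:**
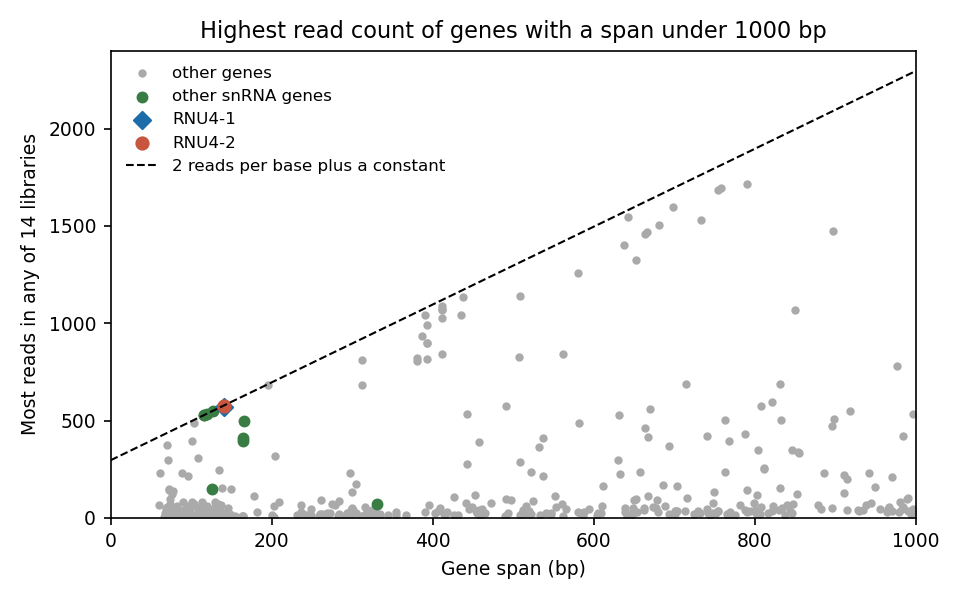
Highest number of reads in any of the 14 libraries against the gene span in bp, for nuclear genes with a span under 1000 bp. The dashed line is 2 reads per base plus 296 reads. RNU4-2 with 577 reads, RNU4-1 with 568 reads and 4 other snRNA genes lie on or just under the line. The 296 is the largest excess in these data, so no gene can lie above the line.

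RNU4-2 was above 90% of the limit in 8 libraries. Its reads in these 8 libraries were 526 to 577, a 1.10-fold range, while their totals ran from 19273038 to 62368915 reads, a 3.24-fold range. RNU4-1 was above 90% of the limit in 2 libraries, both total RNAPII at 19 h, with 568 reads (ATRi) and 562 reads (DMSO). The lowest libraries were Ser2 at 16 h with ATRi, where RNU4-2 stood at 52.2% of the limit and RNU4-1 at 26.3%. Equal reads give a smaller RPM in a deeper library, since the library total is the divisor. The RPM values below are given as deposited, and the reads beside them show how near each was to 578.

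**Figure D2:**
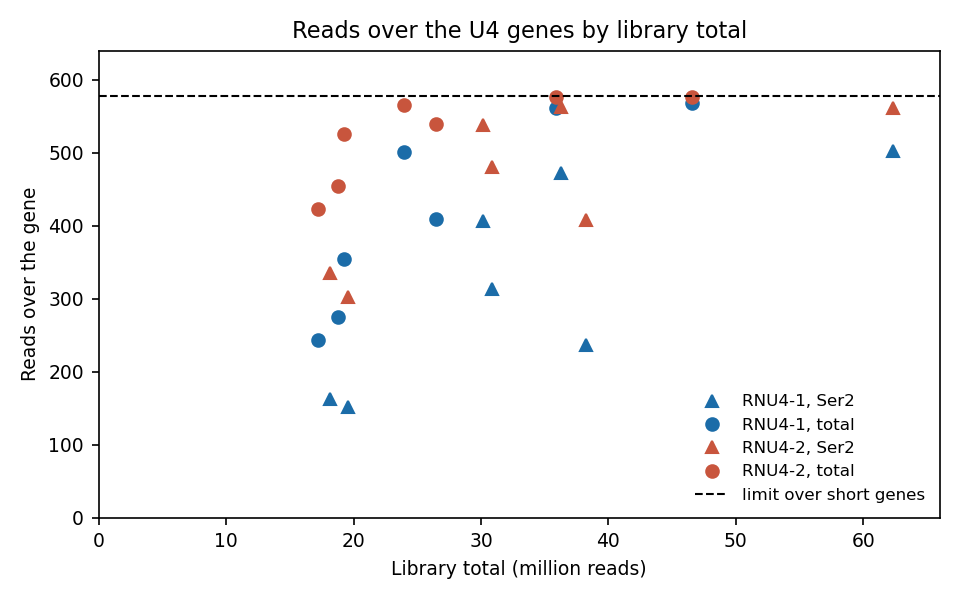
Reads over RNU4-1 and RNU4-2 in each of the 14 libraries against the library total, with triangles for Ser2 and circles for total RNAPII. RNU4-2 lies at 526 to 577 reads, close under the dashed limit of 578 reads, in 8 libraries, while Ser2 at 16 h DMSO (408 reads) and 22 h DMSO (481 reads) lie lower.

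The U4 genes were among the densest RNAPII genes of the table. Per kb of span, RNU4-2 ranked between 2 and 8 and RNU4-1 between 6 and 9 among the 12411 nuclear genes in every library. On that per-length scale RNU4-2 had 63.8 to 131 RPM per kb for Ser2 and 87.9 to 194 RPM per kb for total RNAPII. RNU4-1 had 43.9 to 95.6 RPM per kb for Ser2 and 86.6 to 148 RPM per kb for total RNAPII. The median nuclear gene had between 0.481 and 1.15 RPM per kb. The limit above bounds these densities for the deeper libraries, and a read that only touches the end of a short gene counts in full, so the ranks compare short genes with long ones imperfectly.

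RNU4-1 had 163 Ser2 reads at 14 h, 152 (ATRi) and 237 (DMSO) at 16 h, 472 (ATRi) and 407 (DMSO) at 19 h, and 502 (ATRi) and 314 (DMSO) at 22 h. As levels these were 8.98 RPM at 14 h, 7.78 (ATRi) and 6.19 (DMSO) at 16 h, 13.0 (ATRi) and 13.5 (DMSO) at 19 h, and 8.05 (ATRi) and 10.2 RPM (DMSO) at 22 h. Both 19 h libraries stood above all others, with counting intervals (95%, exact Poisson) apart from the next level, 22 h DMSO. Every other pair of neighbours in the order overlapped within counting error.

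For total RNAPII, RNU4-1 had 243 reads at 14 h, 355 (ATRi) and 410 (DMSO) at 16 h, 568 (ATRi) and 562 (DMSO) at 19 h, and 501 (ATRi) and 275 (DMSO) at 22 h. The levels were 14.1 RPM at 14 h, 18.4 (ATRi) and 15.5 (DMSO) at 16 h, 12.2 (ATRi) and 15.7 (DMSO) at 19 h, and 20.9 (ATRi) and 14.6 RPM (DMSO) at 22 h. All neighbours in this order overlapped within counting error, although the ends, 20.9 RPM (19.1 to 22.9) and 12.2 RPM (11.2 to 13.3), did not. The lowest level, 19 h ATRi, belonged to the deepest total RNAPII library and had the most reads.

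RNU4-2 had 336 Ser2 reads at 14 h, 302 (ATRi) and 408 (DMSO) at 16 h, 563 (ATRi) and 538 (DMSO) at 19 h, and 561 (ATRi) and 481 (DMSO) at 22 h. The levels were 18.5 RPM at 14 h, 15.5 (ATRi) and 10.7 (DMSO) at 16 h, 15.5 (ATRi) and 17.8 (DMSO) at 19 h, and 8.99 (ATRi) and 15.6 RPM (DMSO) at 22 h. The 5 higher levels, from 15.5 to 18.5 RPM, overlapped with their neighbours, and the counting intervals of 16 h DMSO and 22 h ATRi lay below them.

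For total RNAPII, RNU4-2 had 423 reads at 14 h, 526 (ATRi) and 540 (DMSO) at 16 h, 577 (ATRi) and 577 (DMSO) at 19 h, and 565 (ATRi) and 454 (DMSO) at 22 h. The levels were 24.6 RPM at 14 h, 27.3 (ATRi) and 20.4 (DMSO) at 16 h, 12.4 (ATRi) and 16.1 (DMSO) at 19 h, and 23.6 (ATRi) and 24.2 RPM (DMSO) at 22 h. Both 19 h levels lay below all others beyond counting error, in the libraries where the reads stood 1 read under the limit. These intervals cover counting error only, and they assume counts with no upper bound, which counts next to the limit do not meet.

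**Figure D3:**
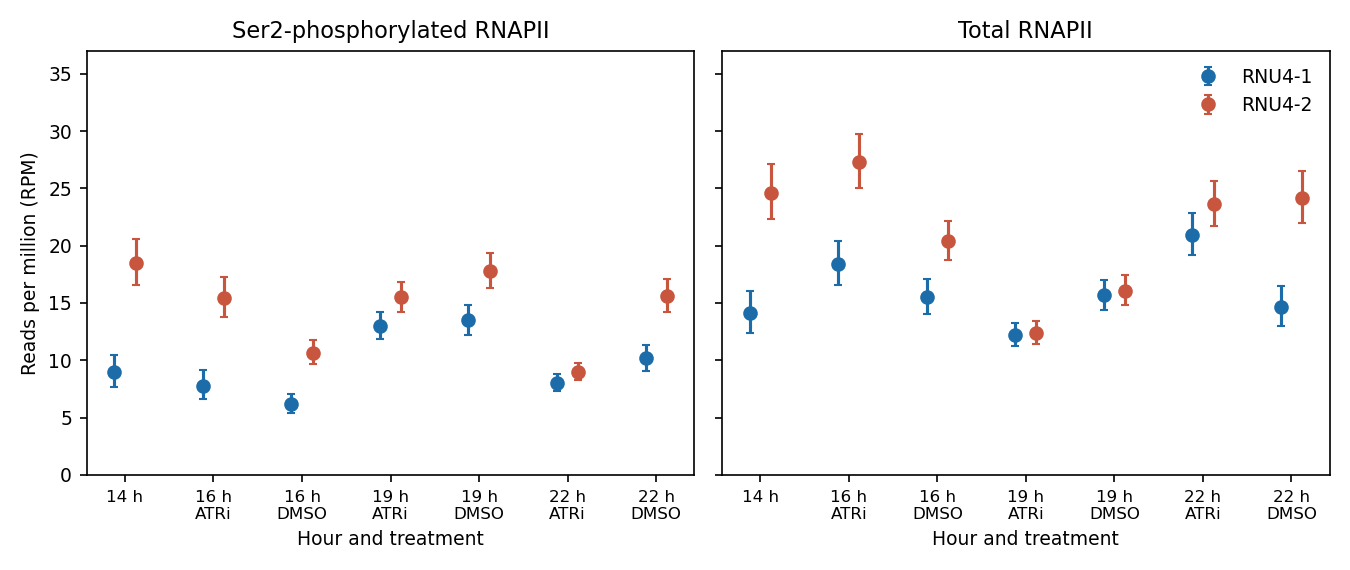
Levels of RNU4-1 and RNU4-2 in RPM in each library (Ser2 left, total RNAPII right), by hour and treatment, with 95% exact Poisson intervals for counting error. RNU4-2 is above RNU4-1 in all 14 libraries, by least at 19 h for total RNAPII (12.4 against 12.2 RPM with ATRi).

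RNU4-2 carried more reads than RNU4-1 in every library. Its share of all U4 reads was highest in the Ser2 library of 14 h, 67.3% (63.0 to 71.4%, exact Clopper-Pearson, n = 499 reads), and lowest in the total RNAPII library of 19 h ATRi, 50.4% (47.5 to 53.3%, n = 1145 reads). In that library RNU4-2 was at 99.8% and RNU4-1 at 98.3% of the limit, and the part of the limit in the share was not tested. In the Ser2 library of 16 h ATRi, where both were farthest from the limit, RNU4-2 had 1.99 times the reads of RNU4-1.

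Over the 7 hours and treatments the RNU4-2 share averaged 60.2 ± 5.77% for Ser2 and 56.6 ± 5.42% for total RNAPII (SD, n = 7 libraries each). The difference within a condition was 3.62 ± 3.39 points (SD, n = 7 pairs), positive in 5 of 7 pairs. It did not pass 0.05 (two-sided exact sign-flip permutation test, p = 0.0625, where 0.0156 is the smallest possible). RNU4-2 was above 90% of the limit in 8 of the 14 libraries and RNU4-1 in 2. The part of the limit in this difference between antibodies was not tested.

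Under ATRi relative to DMSO, both U4 genes were higher at 16 h with either antibody, RNU4-2 was lower at 19 h and, for Ser2, at 22 h, and RNU4-1 lay on different sides of 0 for the antibodies at 22 h. The question the series poses is whether ATR inhibition alters RNAPII transcription during S phase. The cell cycle stage of the cells at each hour was not examined here. For RNU4-2 the log2 ratio of RPM was 0.54 (95% counting interval 0.32 to 0.75) for Ser2 and 0.42 (0.24 to 0.60) for total RNAPII at 16 h. At 19 h it was -0.20 (-0.37 to -0.03) for Ser2 and -0.38 (-0.54 to -0.21) for total RNAPII. At 22 h it was -0.79 (-0.97 to -0.62) for Ser2 and -0.03 (-0.21 to 0.15) for total RNAPII.

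For RNU4-1 the log2 ratio was 0.33 (0.03 to 0.63) for Ser2 and 0.25 (0.04 to 0.46) for total RNAPII at 16 h. At 19 h it was -0.05 (-0.25 to 0.14) for Ser2 and -0.36 (-0.53 to -0.19) for total RNAPII. At 22 h it was -0.34 (-0.55 to -0.13) for Ser2 and 0.52 (0.30 to 0.73) for total RNAPII. The interval held 0 in 1 of 6 pairs for RNU4-1 and in 1 of 6 pairs for RNU4-2.

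For RNU4-2 the log2 ratio of RPM and that of library totals had opposite signs in 6 of 6 pairs, of which total RNAPII at 22 h (-0.03) lay within counting error of 0. For RNU4-1 the signs were opposite in 5 of 6 pairs, of which Ser2 at 19 h (-0.05) lay within counting error of 0. RPM has the library total as its divisor and this contrast chose the genes, so nothing is read from these counts.

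The reads of RNU4-2 differed less in some pairs than in others. At 19 h for total RNAPII there were 577 reads in the ATRi library and 577 in the DMSO library, and the ATRi library total was 1.30 times the DMSO total. The log2 RPM ratio of -0.38 is that ratio of totals with its sign turned. At 19 h for Ser2 there were 563 ATRi reads and 538 DMSO reads, with an ATRi total 1.20 times the DMSO total. At 22 h for Ser2 there were 561 ATRi reads and 481 DMSO reads, with an ATRi total 2.02 times the DMSO total. At 22 h for total RNAPII there were 565 ATRi reads and 454 DMSO reads, with an ATRi total 1.27 times the DMSO total. There the reads differed by nearly as much as the totals, 0.32 against 0.35 on the log2 scale. At 16 h for Ser2 there were 302 ATRi reads and 408 DMSO reads, with an ATRi total 0.511 times the DMSO total. At 16 h for total RNAPII there were 526 ATRi reads and 540 DMSO reads, with an ATRi total 0.728 times the DMSO total. Where both libraries of a pair were above 90% of the limit (19 h with either antibody, and 16 h for total RNAPII), a change of RNAPII and the difference in depth cannot be told apart. At 22 h only the ATRi reads of RNU4-2 were above 90%, at 97.1% for Ser2 and 97.8% for total RNAPII. The part of the limit in those ratios was not tested.

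RNU4-1 in total RNAPII at 22 h was the exception. It had 501 ATRi reads and 275 DMSO reads, or 86.7% and 47.6% of the limit, with an ATRi total 1.27 times the DMSO total. The median gene was also higher in that pair, by 0.52 on the log2 scale, so RNU4-1 sat at percentile 49.6 of all genes and RNU4-2 at percentile 10.0. For Ser2 at 22 h RNU4-2 had the lowest ratio of the 12000 genes. Its reads there were at 97.1% (ATRi) and 83.2% (DMSO) of the limit, with an ATRi total 2.02 times the DMSO total. The part of limit and depth in that rank was not tested. RNU4-1 was the farther from the limit in each of the 16 h Ser2 libraries (26.3% with ATRi and 41.0% with DMSO), and its ratio of 0.33 there has an interval that stops just above 0. The median gene with a span under 1000 bp was at 0.37 in that pair. Centred on that median, RNU4-1 was at -0.041, so its direction there depends on the scaling.

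**Figure D4:**
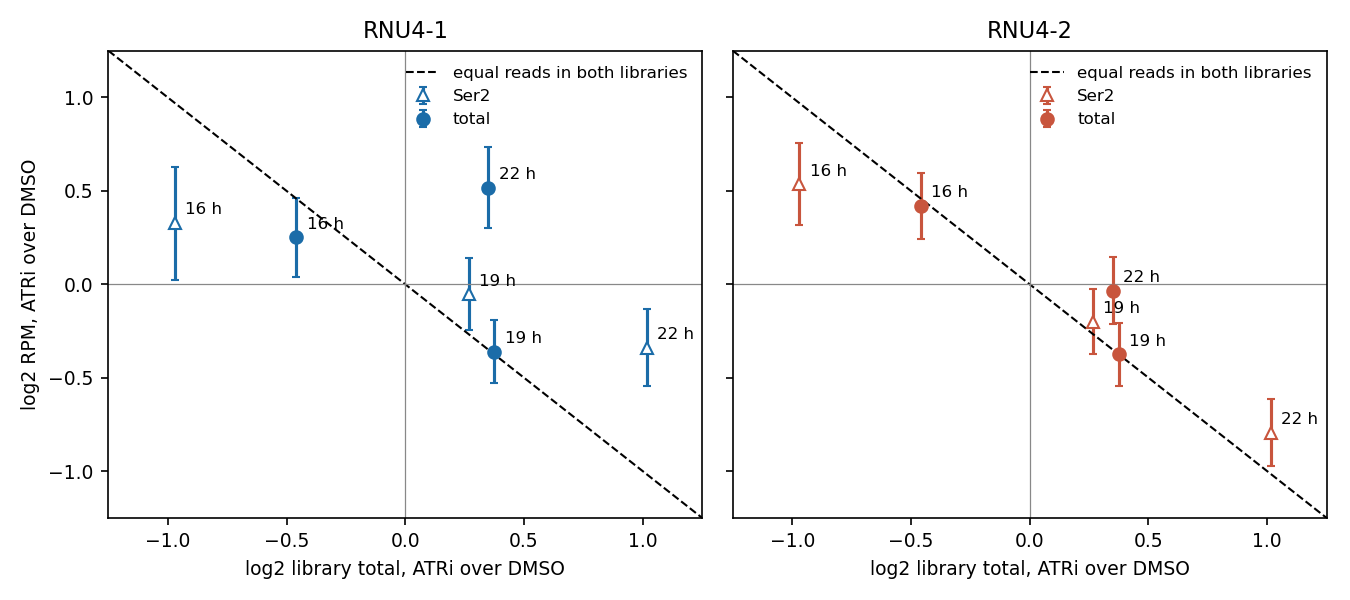
Log2 ratio of RPM, ATRi over DMSO, against the log2 ratio of library totals, for RNU4-1 (left) and RNU4-2 (right) at 16, 19 and 22 h, with 95% counting intervals. The dashed line is where both libraries of a pair have equal reads. RNU4-2 lies on that line at 19 h for total RNAPII (577 reads in both libraries) and off it at 16 h for Ser2 (302 ATRi and 408 DMSO reads) and at 22 h for total RNAPII (565 ATRi and 454 DMSO reads). RNU4-1 departs from it most at 22 h for total RNAPII.

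A log2 ratio of at least 0.5 either way was taken as past the fold threshold, and with 1 library a side it is not a test. RNU4-2 was past it upward for Ser2 at 16 h (4.26% of all genes, 26.6% of genes with a span under 1000 bp) and downward for Ser2 at 22 h (0.25% of all genes, 7.19% of short genes). RNU4-1 was past it upward for total RNAPII at 22 h (52.3% of all genes, 84.2% of short genes). These contrasts chose the genes, so nothing is read from the counts. Centred on the median short gene, RNU4-1 was at -0.36 in that last pair, so its direction there depends on the scaling.

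The 8 other snRNA genes that averaged at least 1 RPM had mostly the same signs as RNU4-2 at 16 and 19 h. At 16 h the ATRi to DMSO log2 ratio was above 0 in 7 of 8 for Ser2 (median 0.44) and in 8 of 8 for total RNAPII (median 0.40), beside 65.6% and 63.4% of all genes. At 19 h it was above 0 in 0 of 8 for Ser2 (median -0.17) and in 1 of 8 for total RNAPII (median -0.36), beside 75.1% and 40.4% of all genes. At 22 h it was above 0 in 2 of 8 for Ser2 (median -0.47), beside 80.7% of all genes. For total RNAPII at 22 h it was above 0 in 8 of 8, beside 88.9% of all genes, and their median of 0.24 lay below the median gene at 0.52. The median gene with a span under 1000 bp was at 0.37 (Ser2) and 0.20 (total RNAPII) at 16 h. It was at 0.01 (Ser2) and -0.22 (total RNAPII) at 19 h, and at 0.21 (Ser2) and 0.88 (total RNAPII) at 22 h. The part of a short span in the snRNA ratios was not tested. RNU5B-1, RNU5A-1, RNU5E-1 and RNU4ATAC, the U4 counterpart of the minor spliceosome, reached at least 99.45% of the limit. The variant U1 genes RNVU1-7, RNVU1-31 and RNVU1-27 had the same signs at 16 and 19 h while reaching 63.0, 65.9 and 79.2% of their limits at most. RNVU1-7, for example, had log2 ratios of 0.46 (0.20 to 0.73) at 16 h and -0.36 (-0.56 to -0.15) at 19 h for total RNAPII. For Ser2 at 19 h the intervals of all these variant U1 genes held 0. They were -0.29 to 0.21 (RNVU1-7), -0.33 to 0.12 (RNVU1-27) and -0.39 to 0.17 (RNVU1-31). At 16 h the interval of RNVU1-31 held 0 with either antibody (-0.18 to 0.80 for Ser2, -0.10 to 0.53 for total RNAPII). RNU6ATAC, a gene for the minor spliceosome's U6 counterpart that RNA polymerase III transcribes, reached 27.4% of its limit and had the other sign in 2 pairs, both within counting error of 0. These were Ser2 at 16 h, with 4 ATRi and 18 DMSO reads (-1.20, interval -3.22 to 0.40), and total RNAPII at 19 h (0.05, interval -0.32 to 0.41).

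Genes for U4/U6 and tri-snRNP proteins were counted in the same way, and the difference between them and the snRNA genes was not tested. Of the 22 measured, 13 were above 0 for Ser2 and 11 for total RNAPII at 16 h, and 18 for Ser2 and 8 for total RNAPII at 19 h, beside the shares of all genes given above. At 22 h all 22 were above 0 with either antibody, with medians of 0.27 for Ser2 and 0.56 for total RNAPII. The median of all genes at 22 h was 0.17 for Ser2 and 0.52 for total RNAPII. The 8 fibroblast marker genes also lay on different sides of 0 for total RNAPII, with 8 above 0 at 16 h (median 0.34) and 0 at 19 h (median -0.14). For Ser2, 7 of them were above 0 at 16 h (median 0.34) and 3 at 19 h (median -0.03). At 22 h, 7 were above 0 for Ser2 and 8 for total RNAPII. The markers were not tested against the snRNA genes.

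The table genes within 100 kb of the pair were PXN, which encodes the focal adhesion protein paxillin, its antisense RNA gene PXN-AS1, the ribosomal protein gene RPLP0 and GCN1, whose product activates the stress kinase GCN2. PXN was the nearest, 25991 bp away. Their ATRi to DMSO log2 ratios at 16 h were -0.06 to 0.27 for Ser2 and -0.14 to 0.29 for total RNAPII. At 19 h the ratios were 0.04 to 0.25 for Ser2 and -0.20 to 0.03 for total RNAPII. For total RNAPII, PXN (0.25, then -0.14) and PXN-AS1 (0.29, then -0.20) went from above 0 at 16 h to below 0 at 19 h. GCN1 (-0.14, then 0.01) and RPLP0 (-0.13, then 0.03) went the other way. At 22 h the ratios were 0.10 to 0.53 for Ser2 and 0.66 to 0.93 for total RNAPII. The levels of these genes were higher at 19 h than at 16 h. Their log2 ratios of 19 h over 16 h were between 1.31 and 1.78 (ATRi) and between 1.23 and 2.00 (DMSO) for Ser2. For total RNAPII the same ratios were 0.54 to 0.97 (ATRi) and 0.39 to 1.35 (DMSO). The median gene had 0.91 (ATRi) and 0.95 (DMSO) for Ser2, and 0.49 (ATRi) and 0.60 (DMSO) for total RNAPII. RNU4-2 had 19 h over 16 h ratios of 0.00 (ATRi) and 0.74 (DMSO) for Ser2, and of -1.14 (ATRi) and -0.34 (DMSO) for total RNAPII. In each of those comparisons the 19 h reads of RNU4-2 were at 93.1% of the limit or above. For RNU4-1 the ratios were 0.74 (ATRi) and 1.12 (DMSO) for Ser2, and -0.59 (ATRi) and 0.02 (DMSO) for total RNAPII. Its 19 h reads were at 81.7% (ATRi) and 70.4% (DMSO) of the limit for Ser2. For total RNAPII they were at 98.3% (ATRi) and 97.2% (DMSO).

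Ser2 relative to total RNAPII was lower at both U4 genes, as at most genes. This comparison played no part in choosing them. In 2 conditions the library totals were nearly equal. At 14 h (Ser2 total 1.06 times the other) RNU4-1 had 163 Ser2 reads and 243 total RNAPII reads, and RNU4-2 had 336 and 423. At 16 h with ATRi (1.01 times) RNU4-1 had 152 Ser2 reads and 355 total RNAPII reads, and RNU4-2 had 302 and 526. Both genes had fewer Ser2 reads in both conditions. The share of reads in nuclear genes was also lower for Ser2, at 37.7% against 43.4% at 14 h and 37.1% against 52.0% at 16 h with ATRi. The median gene's log2 ratio, Ser2 over total, was -0.25 at 14 h and -0.62 at 16 h with ATRi.

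Over all 7 conditions the log2 difference, Ser2 minus total RNAPII, was -0.72 ± 0.17 for RNU4-1 (moderated SE, limma, adjusted p = 0.00301). It was -0.52 ± 0.18 for RNU4-2 (adjusted p = 0.0186). Of the 12000 genes tested, 78.7% were called lower and 3.79% higher, with a median difference of -0.36, so 2 of 2 U4 genes called lower is close to the background. RNU4-1 lay at percentile 6.98 and RNU4-2 at percentile 25.4. Centring each library on its median gene left 2944 genes lower and 3609 higher. RNU4-1 then stood at -0.35 (adjusted p = 0.0219) and RNU4-2 at -0.15 (adjusted p = 0.363).

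The difference varied among conditions for both genes. The RNU4-1 log2 ratio, Ser2 over total, was -0.66 at 14 h, -1.24 (ATRi) and -1.32 (DMSO) at 16 h, 0.09 (ATRi) and -0.22 (DMSO) at 19 h, and -1.38 (ATRi) and -0.52 (DMSO) at 22 h. The RNU4-2 log2 ratio, Ser2 over total, was -0.41 at 14 h, -0.82 (ATRi) and -0.94 (DMSO) at 16 h, 0.32 (ATRi) and 0.15 (DMSO) at 19 h, and -1.39 (ATRi) and -0.63 (DMSO) at 22 h. RNU4-2 was above 0 in both 19 h pairs, where total RNAPII reads were 577, and RNU4-1 was above 0 in 1 of them. At 22 h with ATRi, Ser2 had 561 reads and total RNAPII 565, and the Ser2 library was 2.61 times as deep. Without that 22 h pair RNU4-2 was at -0.38 (limma, adjusted p = 0.0557). In a fit on the 14 h and 16 h ATRi pairs alone, chosen after the limit was seen, RNU4-1 was at -0.91 (limma, adjusted p = 0.0345) and RNU4-2 at -0.60 (limma, adjusted p = 0.0772).

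**Figure D5:**
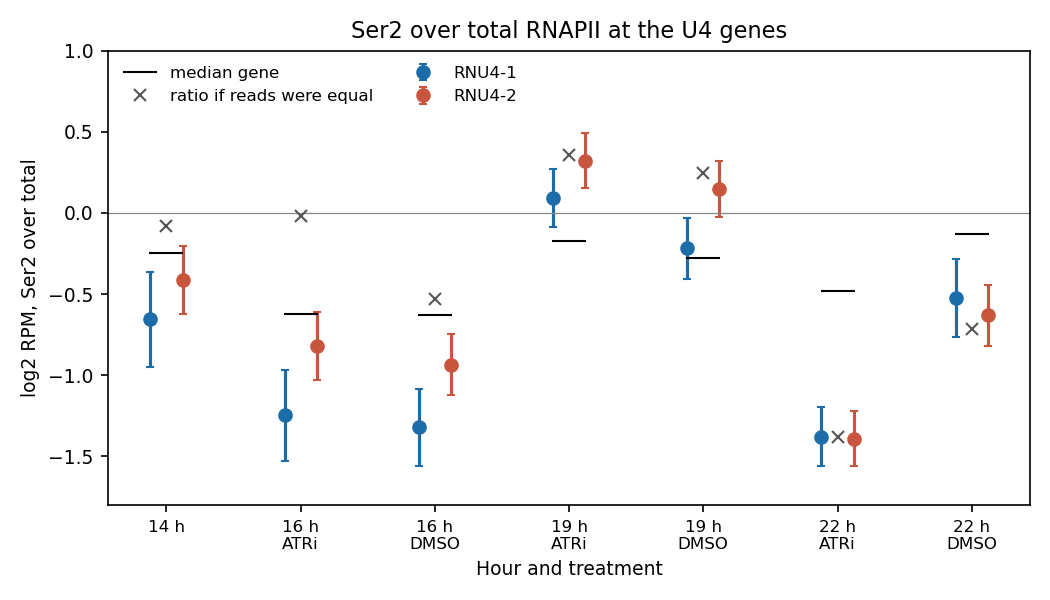
Log2 ratio of RPM, Ser2 over total RNAPII, at RNU4-1 and RNU4-2 in the 7 conditions, with 95% counting intervals, beside the median gene (bars) and the ratio that equal reads would give (crosses). At 22 h with ATRi both genes lie on the cross, at -1.38 for RNU4-1 and -1.39 for RNU4-2, and at 14 h and 16 h with ATRi they lie below it.

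All 8 other snRNA genes tested were also called lower for Ser2, beside 78.7% of all genes and 85.6% of short genes. The 8 included RNU4ATAC at -0.51 ± 0.17 (limma, adjusted p = 0.016) and RNU5B-1 at -0.53 ± 0.18 (limma, adjusted p = 0.0165). With median centring neither call held, at -0.14 for RNU4ATAC (limma, adjusted p = 0.347) and -0.17 for RNU5B-1 (limma, adjusted p = 0.304). Without the 22 h ATRi pair RNU5B-1 was at -0.40 (limma, adjusted p = 0.0508). Of the tri-snRNP protein genes 22 of 22 were lower (median -0.42), led by LSM7 (-0.79) and LSM4 (-0.65), which encode parts of the ring on the 3′ end of U6. Of 27 genes for snRNA transcription and 3′ end formation 22 were lower (median -0.34). SNAPC2, a SNAPc subunit (-0.80), and INTS5, an Integrator subunit (-0.77), were the lowest. POU2F1, a factor that binds snRNA enhancers, was the 1 called higher (0.14 ± 0.05, limma, adjusted p = 0.0192; 0.0637 without the 16 h DMSO pair). Of 16 Sm core, cap and assembly genes 15 were lower (median -0.46), with the Sm protein genes SNRPB (-0.62) and SNRPD2 (-0.60) in front. The counts of these lists stand beside 78.7% of all genes lower, 3.79% higher and a median of -0.36, and the lists were not tested against them.

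Between 16 and 22 h the U4 genes did not change beyond the spread for total RNAPII. With the ATRi and DMSO libraries of an hour standing in for replicates, the log2 difference, 22 h minus 16 h, was 0.05 ± 0.28 for RNU4-1 and 0.02 ± 0.27 for RNU4-2 (moderated SE, limma, adjusted p = 0.9999 for each). Of 12031 genes 0% were called in either direction by limma at an adjusted p of 0.05, with 355 at an unadjusted p under 0.05. By edgeR 0 were called and by DESeq2 50 were called. The SE is too wide to read an absence of change from this. With either antibody, the SE of this comparison takes in differences between hours in the ATRi to DMSO ratio, the contrast that chose the U4 genes.

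For Ser2 the difference was 0.36 ± 0.13 for RNU4-1 (limma, adjusted p = 0.0364), called higher, beside 39% of the 11989 genes tested (0.918% were called lower). For RNU4-2 it was -0.11 ± 0.18 (limma, adjusted p = 0.651). With each library centred on its median gene, whose shift was 0.21, 1221 genes were higher and 1262 lower, and RNU4-1 stood at 0.14 (adjusted p = 0.474). Without the 16 h DMSO library RNU4-1 was at 0.11 (adjusted p = 0.601), and without the 22 h DMSO library at 0.14 (adjusted p = 0.509). RNU4-2 changed sides: it was at -0.61 (adjusted p = 0.00054) without the 16 h DMSO library and at 0.39 (adjusted p = 0.0493) without the 16 h ATRi library. The Ser2 libraries held 62368915 (ATRi) and 30838523 (DMSO) reads at 22 h, against 19539110 (ATRi) and 38269525 (DMSO) reads at 16 h, and the part of depth in these values was not tested.

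Of the 8 other snRNA genes tested in this comparison, RNU6ATAC (0.73 ± 0.19, limma, adjusted p = 0.00668) and RNVU1-31, a variant U1 gene (0.62 ± 0.14, limma, adjusted p = 0.00222), were called higher. Median centring left RNU6ATAC at 0.50 (limma, adjusted p = 0.0783). It was at 0.50 (adjusted p = 0.102) without the 16 h ATRi library and at 0.51 (adjusted p = 0.211) without the 22 h ATRi library. RNVU1-31 was at 0.53 (adjusted p = 0.0737) without the 22 h ATRi library. The remaining 6 lay between -0.14 and 0.24 and did not pass. Of the tri-snRNP protein genes 12 of 22 were higher, led by CD2BP2 (0.69) and EFTUD2 (0.42), both U5 particle proteins. Of the transcription and 3′ end genes 10 of 27 were higher, led by the elongation factor gene ELL2 (0.58) and WDR73 (0.47). Of the Sm core, cap and assembly genes 10 of 16 were higher, led by SNRPB (0.58) and NCBP2 (0.54), a subunit of the nuclear cap-binding complex. None of these lists had a gene called lower, beside 0.918% of all genes, and their counts of higher genes stand beside 39%. With median centring EFTUD2 (limma, adjusted p = 0.123) and WDR73 (adjusted p = 0.0601) were not called. EFTUD2 was also not called without the 16 h ATRi library (adjusted p = 0.145) or without the 22 h ATRi library (adjusted p = 0.0768).

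The genes whose pattern over the 14 libraries was most like RNU4-2 were also short and came near the limit. The pattern was log2(RPM + 0.5) minus the library's median gene and minus the mean of each antibody. RNU5B-1 came first (Pearson r = 0.999), and the next 4 were unnamed genes of 581 to 758 bp on chromosome 17 (r = 0.996 to 0.997). For RNU4-1 the nearest was an unnamed gene on chromosome 22 (r = 0.957), followed by an unnamed gene on chromosome 17, the linker histone genes H1-2 and H1-4 and the variant U1 gene RNVU1-27 (r = 0.930 to 0.949). RNU4-1 and RNU4-2 had r = 0.90 with each other. These correlations share libraries and depth and are a description only. RNU5B-1 reached 100% of its limit, the 4 genes on chromosome 17 that follow it reached 86.3 to 94.2%, H1-2 reached 97.8% and H1-4 reached 93.5%, while the chromosome 17 gene nearest to RNU4-1, of 1321 bp, reached 54.4%.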

How the data were processed

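The deposited table gave RPM over the whole span of 12425 genes in 14 libraries. The authors scaled the values per 1000000 library reads and did not divide them by gene length, as the deposited values show. Per the submitters' processing notes, the authors used Bowtie2 2.3.3.1, SAMtools 1.4 and the hg38 genome. The counting tool, the annotation, duplicate treatment, input and spike-in are not given in the sources used here. The protocol text names antibodies against histones only, so antibody identity rests on the sample labels. Gene span (bp) was read from the deposited table as a further column of another unit.

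In each column 100% of values were whole multiples of a step (tolerance 0.01 reads), which gave whole reads and library totals. A count of 3 reads equals 0.0481 to 0.175 RPM. Intervals and this floor cover counting error only. Symbols were assigned by position against RefSeq GRCh38 genes (overlap over union of at least 0.8, or 0.5 where an end differed by no more than 100 bp), naming 86.3% of genes. The 14 mitochondrial genes were left out.

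All fits were two-sided and ran in limma 3.58.1 (R 4.3.3, moderated with a trend on the level). They took log2(RPM + 0.5) of every gene that averaged 1 RPM or more, with Benjamini-Hochberg adjustment over all of them at 0.05. Fold changes on this scale understate those of low genes. Ser2 was set against total RNAPII with the 7 conditions as blocks, and 22 h against 16 h within an antibody with treatment as a term. With 1 library per group, p-values measure only the spread between these libraries. edgeR 4.0.16 and DESeq2 1.42.0 on the recovered reads, other pseudocounts, centring, no filter and leaving out libraries were alternatives. Steps were tested on simulated data. The genes and the lists were chosen with earlier results of these data known. Named genes were the U4 genes, measured snRNA genes, table genes within 100 kb, the 5 genes most like each U4 gene, and of each protein list the genes with the largest and smallest called differences, of which the text prints the leading ones. Likeness was computed in Python 3.11.15.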

Additional observations from a re-analysis of the deposited data

Results flagged for a closer look

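By sign alone, the ATRi to DMSO log2 ratio changed sides between hours with both antibodies, which is also the pattern that led to these genes being chosen. Averaged over Ser2 and total RNAPII, the ratio of RNU4-1 was lower at 19 h than at 16 h by -0.50 (19 h minus 16 h). For RNU4-2 the same difference was -0.77, and 22 h minus 16 h was -0.89. The -0.50 includes RNU4-1 for Ser2 at 19 h, which lay within counting error of 0 (-0.05, interval -0.25 to 0.14). The -0.89 includes RNU4-2 for total RNAPII at 22 h, which also lay within counting error of 0 (-0.03, interval -0.21 to 0.15). At 22 h RNU4-1 lay on different sides of 0 for the antibodies, at -0.34 for Ser2 and 0.52 for total RNAPII. These differences between hours were not tested, because each group has 1 library. The ratio of library totals, ATRi over DMSO, also changed sides of 1 between 16 h and the later hours: it was 0.511 (Ser2) and 0.728 (total RNAPII) at 16 h, 1.20 (Ser2) and 1.30 (total RNAPII) at 19 h, and 2.02 (Ser2) and 1.27 (total RNAPII) at 22 h. RNU4-2 was above 90% of its read limit in 8 of the 14 libraries, and where both libraries of a pair were, a change at the gene and the difference in depth cannot be told apart. At 22 h only its ATRi reads were above 90%, and the part of the limit in those ratios was not tested.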

How the results depend on the processing

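Replicate numbers pair no libraries here, since each group had 1, and the hours and treatments were the blocks of Ser2 against total RNAPII. In Ser2 minus total RNAPII, where 455 genes were called higher and 9445 lower, median centring gave 3609 higher and 2944 lower, centring on genes with a span under 1000 bp gave 10812 and 48, edgeR gave 3513 and 3063, and DESeq2 gave 3712 and 2616. The 2 pairs within 1.1-fold of each other in library total, an alternative chosen after seeing the data, gave 3 higher and 1530 lower. Leaving out a condition gave 342 to 489 higher and 8665 to 9533 lower. RNU4-1 was at -0.85 to -0.62 without 1 condition. RNU4-2 was at -0.65 to -0.38 without 1 condition, -0.15 with median centring, -0.16 with edgeR, -0.14 with DESeq2 and -0.60 in the 2 pairs, and passed the threshold in none of these last 4. Centring on short genes turned the sign of both, to 0.12 for RNU4-1 and 0.32 for RNU4-2, and of RNU4ATAC (0.33), RNU5B-1 (0.31), LSM7 (0.045), LSM4 (0.19), SNAPC2 (0.041), INTS5 (0.065), SNRPB (0.22) and SNRPD2 (0.24). RNU4-2 (adjusted p = 0.0405), RNU4ATAC (0.0217), RNU5B-1 (0.0487), LSM4 (0.0137), SNRPB (0.00818) and SNRPD2 (0.00164) were then called higher. That centring moves every gene by the same amount per library. RNU4ATAC and RNU5B-1 were also not called by edgeR (adjusted p = 0.364 and 0.328), by DESeq2 (0.401 and 0.496) or in the 2 pairs (0.132 and 0.0655).

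In 22 h minus 16 h for total RNAPII, DESeq2 called 25 genes higher and 25 lower, and leaving out a library called 0 to 406 higher and 0 to 4089 lower. RNU4-1 ranged from -0.23 to 0.33 and RNU4-2 from -0.29 to 0.32 without 1 library. The single library left at an hour is assumed to vary like the others. For Ser2, where 4678 genes were called higher and 110 lower, median centring gave 1221 and 1262, centring on short genes 415 and 1527, edgeR 1160 and 911, and DESeq2 623 and 597. Leaving out a library gave 1563 to 4828 higher and 20 to 166 lower. RNU4-1 fell short of the threshold with median centring (0.14), centring on short genes (0.054), edgeR (0.19) and DESeq2 (0.16), and ranged from 0.11 to 0.61 without 1 library. RNU4-2 passed it, downward, with centring on short genes (-0.42), and ranged from -0.61 to 0.39 without 1 library.

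The share of RNU4-2 kept its sign and its side of the threshold in all 8 alternatives, at 3.08 to 4.52 points without 1 condition. Of the ATRi over DMSO ratios, 50 of 60 values under other settings stayed within the counting interval. Most of the 60 were changes of pseudocount, which move genes at these levels little, and all of those stayed within it. The values that left it all came from centring, and most values centred on short genes left it. The count of 50 is therefore no measure of how far the ratios depend on scaling. RNU4-1 for total RNAPII at 22 h turned to 0.00 (-0.00305) with median centring and to -0.36 with centring on short genes. Centring on short genes moved RNU4-1 to -0.041 for Ser2 at 16 h and -0.14 for total RNAPII at 19 h. It moved RNU4-2 to 0.17 for Ser2 and 0.22 for total RNAPII at 16 h, -0.16 for total RNAPII at 19 h, and -1.0 for Ser2 and -0.91 for total RNAPII at 22 h. Median centring moved the last to -0.55. The cause was not tested. Of the named genes in the Ser2 comparison of hours, RNU6ATAC (adjusted p = 0.0647), WDR73 (0.0552) and EFTUD2 (0.128) were not called by edgeR. DESeq2 did not call WDR73 (0.230), EFTUD2 (0.332), NCBP2 (0.147) or SNRPB (0.0551), and gave no adjusted p for RNU6ATAC, RNVU1-31 and CD2BP2. Centring on short genes left RNVU1-31 at an adjusted p of 0.133. The U4 genes had at most 577 reads, and the part of the limit in these values was not tested.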
